A study of Rattus norvegicus with 6 samples.

Results

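The genes described here are 62 members of the Actin Cytoskeleton gene set used by the study, out of 454 symbols in that set and 23940 genes in the count table. Members were found by matching the set's symbols, ignoring case, to the names that the study's full table of differential expression pairs with Ensembl identifiers. Only the 1517 rows of that table with the smallest p-values for TE-RMS against planar astrocytes were read, and they paired 74 symbols of the set. Of these, 12 were left out by name, among them smooth muscle actin, the tropomyosins, filamin A, the actinins and calponin, and 380 symbols had no pair and are not analyzed here. The contrast between the 2 conditions therefore chose these genes, and the size and direction of their change are given as a description, with no test. In the order of that table the last member was Flot1, whose level was 1.82-fold lower in TE-RMS astrocytes, and set symbols past that point carry no name.

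The study compared astrocytes from the cortex of newborn Sprague–Dawley rats (postnatal day 0–1, either sex) that were used at passage 4 and kept for 4 days in the same medium in both conditions. In the planar group (2Dastro in the labels) the cells grew on a flat layer of polymerized collagen. In the tissue-engineered rostral migratory stream group (TE-RMS, TERMS in the labels) the same cells were seeded into collagen-coated agarose microchannels, where they bundled into aligned cables. Each TE-RMS library was a pool of constructs that had been picked for tight bundling and kept frozen in an RNA preservative, while planar cells were extracted fresh, so the culture format and these steps cannot be told apart. Each condition had 3 libraries, 1 from each of 3 runs, called July, September and October after their labels. The planar libraries held 70682593, 70478784 and 56483332 counts in that order, and the TE-RMS libraries held 54601354, 77277336 and 64537115.

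Actin filaments grow from monomers, branch where the Arp2/3 complex binds the side of an existing filament, and are taken apart by severing proteins of the cofilin and gelsolin families. Bundling and crosslinking proteins set the spacing of filaments, and myosins pull on them. Filaments are anchored to the matrix at focal adhesions, which hold vinculin, zyxin and talin, and to neighboring cells through alpha-catenin. Transcription of many of these genes, the actins included, depends on serum response factor (SRF), which binds the CArG box.

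Levels are given as CPM, that is counts scaled to a common library size, after edgeR's TMM normalization. CPM is not corrected for gene length, so values are compared between libraries and not between genes. In these bulk samples, fewer cells of one kind and less RNA per cell cannot be told apart. Of 14 listed astrocyte markers 4 were paired, and the names of Gfap, Aqp4 and the remaining ones were not. These 4 were named by their small p-values for the contrast between conditions, so their change is a description and no test of identity. The glutamate transporter Slc1a3 had 241, 253 and 275 CPM in planar and 722, 674 and 882 CPM in TE-RMS libraries, and the gap junction gene Gja1 was at 222 CPM or more in every library. Slc1a2, a marker of mature astrocytes, was at 0.414, 1.33 and 1.03 CPM in planar libraries, close to absent, and at 7.44, 13.0 and 20.8 CPM in TE-RMS libraries. Fgfr3, a receptor of astrocytes, went down with no overlap, and the 4 markers summed to 622, 606 and 755 CPM in planar and 1293, 1513 and 1801 CPM in TE-RMS libraries, with Slc1a3 or Gja1 adding the most counts to each sum.

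Of the 62 members, all of which had the 10 counts in total that were needed for a test, 42 were lower and 20 were higher in TE-RMS astrocytes. At an adjusted p of 0.05 all 62 were called by the quasi-likelihood test of edgeR, an outcome that the choice of members largely fixed. Over all 16331 tested genes, 9.28% were called lower and 9.36% called higher, together 18.6%. Each member had the same direction in all 3 runs, which the choice of members also largely fixed. The share of all tested genes that did is not given. The libraries of the 2 conditions did not overlap for 34 lower and 15 higher members, where 16.1% and 13.2% of all tested genes, together 29.3%, were apart in those directions. The median log2 fold change was -1.11 over the members, -1.25 over the lower ones and 1.10 over the higher ones, and -0.12 over all tested genes. Among the other 1441 named genes that were tested, 49.5% were lower, against 67.7% of the members.

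**Figure D1:**
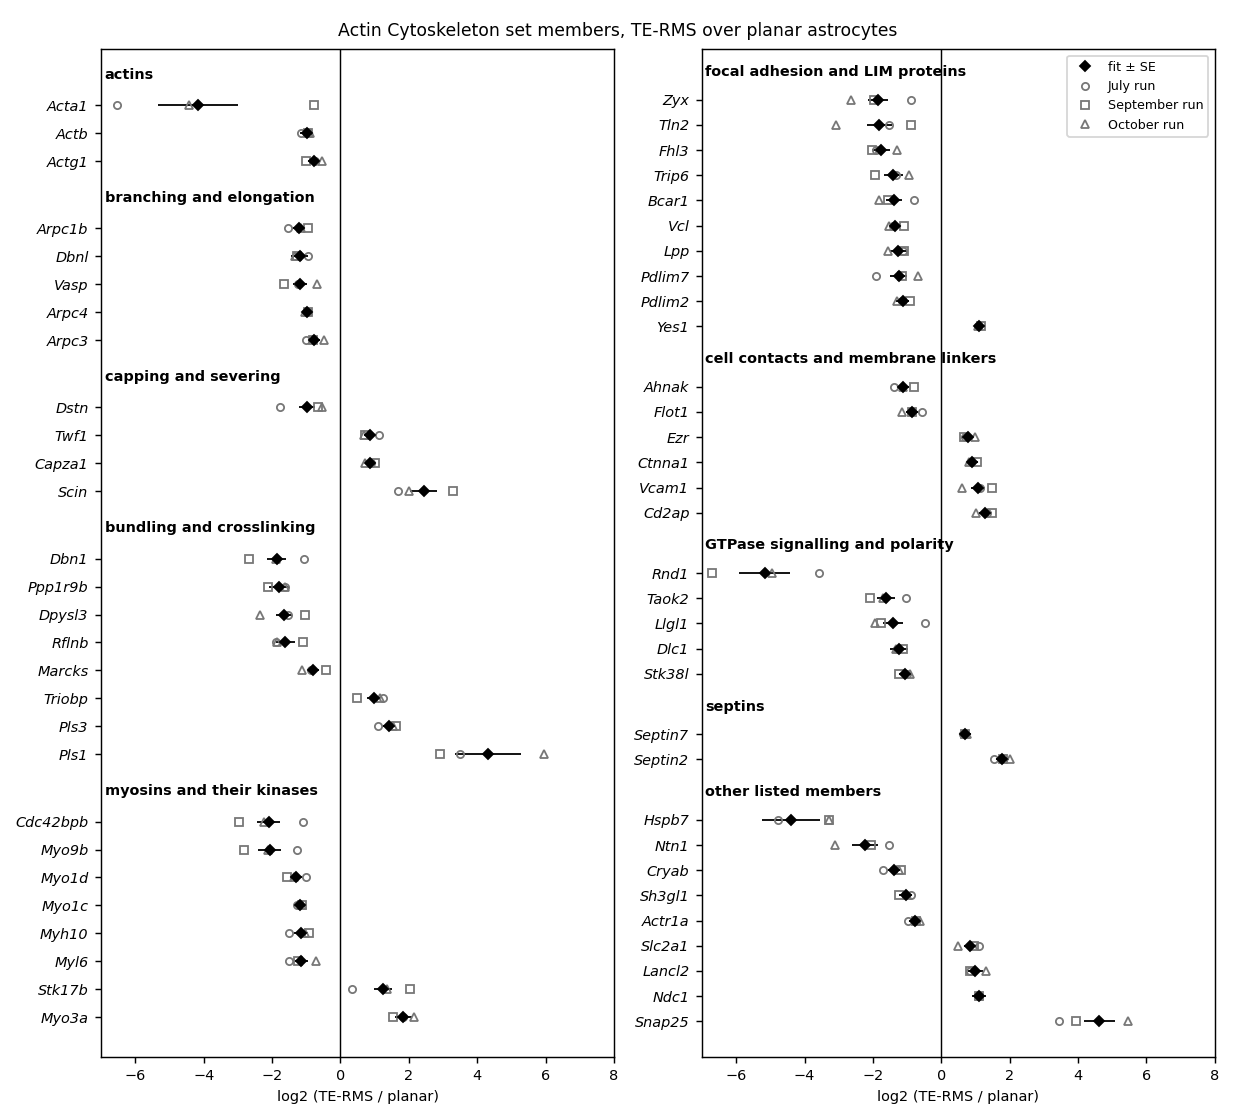
Log2 ratio of TE-RMS over planar (x axis) for 60 of the members, grouped by function; diamonds with bars are the edgeR fit with its standard error and open symbols are the 3 runs. Every member shown has all 3 runs on 1 side of 0, the branching and GTPase signalling groups lie wholly to the left, and the septins lie to the right.

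By function, the lower genes covered all 3 actins, all 5 branching and elongation genes and all 5 genes of GTPase signalling and polarity. Of 10 focal adhesion and LIM genes, 9 were lower, and 6 of 8 myosin genes. The capping and severing group was mostly higher, at 3 of 4 genes. The bundling and crosslinking group was split into 6 lower and 3 higher genes. Cell contact and membrane linker genes were mostly higher, at 5 of 7, and both septins were higher. Summed over their members, actins made up 3.92%, 1.97% and 1.62% of all planar counts (July, September, October) and 1.95%, 0.926% and 0.812% of TE-RMS counts. Nearly all of each sum came from Actb, and the conditions overlapped.

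**Figure D2:**
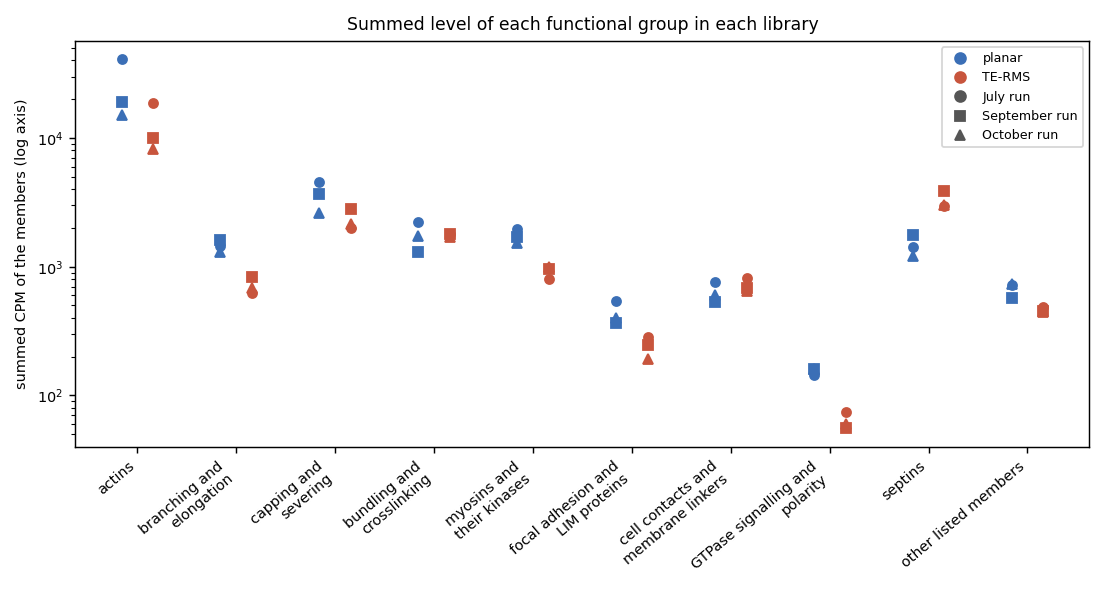
Summed CPM of the members of each functional group (y axis, log scale) in each library, with color for the condition and symbol shape for the run. TE-RMS libraries lie below planar libraries without overlap for branching, myosin and GTPase signalling genes and above them for septins, while the bundling group overlaps.

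Of the actins, Actb, which encodes beta-actin (mRatBN7.2 chromosome 12, 11663109 to 11672877), was at 39199.6, 18354 and 14446 CPM in planar libraries, again by run from July to October, and at 17745, 9558 and 7778 CPM in TE-RMS libraries. The July TE-RMS library was above the October planar library, so the conditions overlapped, although Actb was lower within each run, with log2 ratios of -1.14, -0.94 and -0.89. The fitted level was 1.99-fold lower, at a log2 fold change of -0.99 (standard error 0.19). Actg1, the gamma-actin gene (chromosome 10, 105619737 to 105624232), was at 1727, 787 and 697 CPM in planar and 1036, 388 and 475 CPM in TE-RMS libraries. It too was lower in each run and highest in July in both conditions, with a log2 fold change of -0.77 (standard error 0.17). On the log2 scale, the ratio of Actg1 to Actb changed by 0.22 ± 0.26 (SD, n = 3 runs) between conditions, so the 2 cytoplasmic actins did not part by more than the runs did.

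Acta1, the skeletal muscle actin gene (chromosome 19, 51883715 to 51886742), had 745, 45 and 283 counts in planar and 5, 25 and 12 counts in TE-RMS libraries. Its log2 fold change of -4.17 (standard error 1.16) was the largest fall among the actins, but the within-run log2 ratios were -6.54, -0.79 and -4.42, so the September run showed little of it. Without the July run the value was -2.71. The actins are close paralogs, and reads that fit more than 1 of them had been divided by probability before the counts were deposited.

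The CArG box was searched on both strands in RefSeq promoter windows of build GRCr8, which run from 250 bases before to 50 bases after each gene's start. A window was found for 47 of the 62 members. A CArG box was present in the windows of 3 members, Acta1, Actg1 and Trip6, all lower in TE-RMS astrocytes, and their 250 bases are shown with the box in capitals.

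Acta1, chr19:68784195-68784444, minus strand: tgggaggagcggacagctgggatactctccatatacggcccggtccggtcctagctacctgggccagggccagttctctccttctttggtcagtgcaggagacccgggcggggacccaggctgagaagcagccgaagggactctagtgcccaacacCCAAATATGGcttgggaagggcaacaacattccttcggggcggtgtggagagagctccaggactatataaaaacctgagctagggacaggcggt
Actg1, chr10:106120952-106121201, minus strand: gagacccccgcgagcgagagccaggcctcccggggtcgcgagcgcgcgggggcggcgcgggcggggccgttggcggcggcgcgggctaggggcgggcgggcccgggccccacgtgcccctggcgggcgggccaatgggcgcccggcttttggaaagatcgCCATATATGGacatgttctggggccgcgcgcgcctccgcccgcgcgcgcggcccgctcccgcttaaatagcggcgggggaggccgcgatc
Trip6, chr12:25022709-25022958, plus strand: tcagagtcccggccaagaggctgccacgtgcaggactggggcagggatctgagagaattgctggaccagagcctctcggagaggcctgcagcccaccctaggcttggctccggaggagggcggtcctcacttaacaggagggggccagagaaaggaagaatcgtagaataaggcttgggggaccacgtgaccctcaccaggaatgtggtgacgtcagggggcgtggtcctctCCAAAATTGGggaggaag

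Counted from the start, the box began at base -94 in Acta1, -90 in Actg1 and -18 in Trip6. It was in the windows of 3 of 32 lower members and 0 of 15 higher members, and in 1.64% of all 33469 windows. Since members were counted once per gene, the matching share is that of symbols with the box in any window, 1.77% of 27457. CATTCC, the core bound by the YAP partner TEAD, was searched on both strands as well and was in the windows of 9 of 32 lower and 2 of 15 higher members, Pls3 and Capza1, against 14.2% of all windows and 15.0% of symbols. The lower members with this motif included Acta1, Vcl, Zyx, Myh10 and Trip6. The AP-1 motif TGACTCA was found for Myo1c alone, against 4.63% of all windows and 5.04% of symbols. The antioxidant response element, TGACNNNGC, which begins with the same letters, was found on either strand for 6 lower members and 1 higher member, against 12.1% of all windows and 13.1% of symbols. These are matches of letters and not binding sites.

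Branching and elongation genes were all lower, and none had overlapping conditions. Arpc1b, a subunit of the Arp2/3 complex (chromosome 12, 9480831 to 9495747), was at 643, 831 and 612 CPM in planar and 222, 427 and 275 CPM in TE-RMS libraries, for a log2 change of -1.21 (standard error 0.18). Arpc4, another subunit, was at 325, 307 and 311 CPM and at 168, 161 and 152 CPM, and its libraries within a condition lay close together. Arpc3 was at 369, 378 and 298 CPM in planar and 185, 218 and 212 CPM in TE-RMS libraries. The 3 subunits were thus 2.32-fold, 1.97-fold and 1.70-fold lower in the order Arpc1b, Arpc4 and Arpc3. Vasp, which protects and extends filament ends, was at 87.4, 70.6 and 48.1 CPM in planar and 37.2, 22.6 and 29.9 CPM in TE-RMS libraries. Dbnl, an adaptor between actin and endocytic sites, was at 28.2, 19.3 and 23.0 CPM and at 14.4, 7.94 and 9.17 CPM. Vasp and Dbnl were both 2.28-fold lower.

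Genes that cap or sever filaments did not move together. Dstn, the depolymerizing factor destrin (chromosome 3, 131284648 to 131311379), was at 4224, 3260.5 and 2254 CPM in planar and at 1249, 2060.3 and 1538 CPM in TE-RMS libraries, for a log2 change of -0.99 (standard error 0.23). The difference was largest in July, with a log2 ratio of -1.76 against -0.66 and -0.55. Twf1, which binds actin monomers and caps filament ends, went the other way, from 233, 218 and 207 CPM to 513, 362 and 334 CPM. Capza1, a subunit of the capping protein, was at 133, 159.9 and 168 CPM in planar and 248, 321 and 275 CPM in TE-RMS libraries. Twf1 and Capza1 were 1.80-fold and 1.83-fold higher, with no overlap. Scin, which encodes the gelsolin relative adseverin (chromosome 6, 57109403 to 57188242), was at 0.547, 4.66 and 0.248 CPM in planar and 1.82, 45.7 and 1.09 CPM in TE-RMS libraries. It was higher in each run, yet the September planar library exceeded the July and October TE-RMS libraries, so the conditions overlapped.

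Among bundling and crosslinking genes, the 2 plastins were higher and most others lower. Pls3, which encodes T-plastin, a bundler of parallel filaments (chromosome X, 111589254 to 111683891), was at 333, 372 and 384 CPM in planar and 706, 1154 and 1106 CPM in TE-RMS libraries, for a log2 change of 1.41 (standard error 0.18). Pls1, its relative I-plastin, had 6, 56 and 2 counts in planar and 75, 436 and 249 counts in TE-RMS libraries. Neither plastin overlapped between conditions, although Pls1 was under the floor of 3 counts in the October planar library, and its log2 fold change of 4.31 carried a standard error of 0.96. Triobp, which packs filaments into tight bundles, was at 45.5, 31.8 and 21.6 CPM in planar and 109, 44.2 and 48.6 CPM in TE-RMS libraries, and overlapped.

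Dbn1, which encodes the side-binding protein drebrin, was at 34.8, 33.1 and 44.6 CPM in planar and 16.6, 5.20 and 12.1 CPM in TE-RMS libraries, and at 3.66-fold lower it was the largest fall of the bundling group. Ppp1r9b (spinophilin, which ties a phosphatase to filaments) was at 19.6, 15.2 and 19.2 CPM and at 6.30, 3.45 and 6.17 CPM. Dpysl3, a collapsin response mediator that binds actin, was at 55.0, 35.7 and 139.6 CPM in planar and 18.9, 17.2 and 27.1 CPM in TE-RMS libraries. These 3 genes were apart in all libraries, and October stood out as the highest planar value of Dpysl3. Rflnb (refilin B, a filament organizer) was at 8.66, 13.3 and 40.6 CPM and at 2.31, 6.24 and 11.2 CPM. Marcks, a crosslinker at the cell membrane, was at 1682, 759 and 1038 CPM in planar and 920.2, 562 and 477 CPM in TE-RMS libraries. Rflnb and Marcks overlapped between conditions and were lower within each run.

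**Figure D3:**
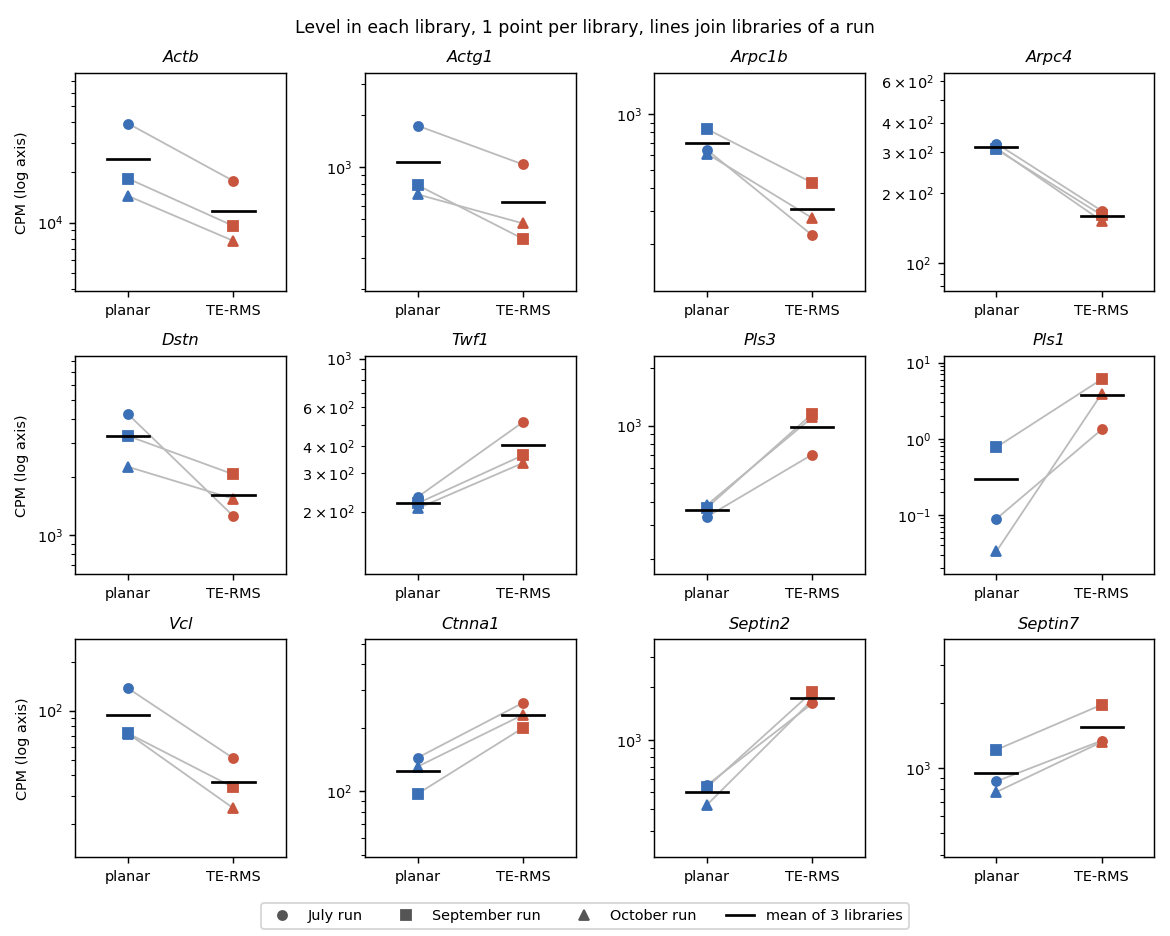
CPM (y axis, log scale) of 12 members in each library, with planar at the left and TE-RMS at the right of each panel; points are libraries, lines join the libraries of a run and black bars are means of 3 libraries. The Arpc genes, Dstn and Vcl slope down and Twf1, the plastins, Ctnna1 and the septins slope up in all 3 runs.

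Focal adhesion and LIM genes were lower with 1 exception. Vcl, the vinculin gene (chromosome 15, 3265815 to 3355606), was at 137, 72.5 and 72.2 CPM in planar and 50.9, 33.8 and 25.1 CPM in TE-RMS libraries, for a log2 change of -1.35 (standard error 0.17). Zyx, which encodes zyxin, a LIM protein of strained filaments, was at 56.2, 37.4 and 46.6 CPM and at 30.1, 9.51 and 7.37 CPM, the largest fall of the group at 3.59-fold. Both were apart, and the July TE-RMS library of Zyx was the nearest to the planar range. Tln2, Fhl3, Trip6, Bcar1, Lpp, Pdlim7 and Pdlim2 were lower by 2.19-fold to 3.51-fold, and of these Lpp alone overlapped. The exception was Yes1, a kinase of the Src family, at 41.9, 53.1 and 31.4 CPM in planar and 87.7, 119.7 and 66.7 CPM in TE-RMS libraries. Yes1 was higher by nearly the same log2 ratio in each run, 1.07, 1.17 and 1.08.

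At cell contacts and the membrane, Ctnna1, which encodes alpha-catenin, the link from cadherins to actin (chromosome 18, 26728485 to 26860910), was at 144, 97.1 and 131 CPM in planar and 262, 199 and 230.0 CPM in TE-RMS libraries. The 2 conditions were apart, at a log2 change of 0.91 (standard error 0.16). Ezr, Vcam1 and Cd2ap were higher by 1.72-fold, 2.11-fold and 2.45-fold without overlap. Ezr encodes a linker of membrane and actin, Vcam1 an adhesion receptor and Cd2ap a scaffold. Ahnak, which encodes a very large scaffold protein, was lower without overlap and had 302, 198 and 233 CPM in planar and 115, 113 and 106 CPM in TE-RMS libraries. Flot1, of membrane microdomains, was lower and overlapped.

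Septins form filaments of their own that bind actin and membranes. Septin2 (chromosome 9, 94018208 to 94051386) was at 549.7, 535 and 424 CPM in planar and 1615, 1883 and 1691 CPM in TE-RMS libraries, for a log2 change of 1.79 (standard error 0.18). Septin7 was at 869, 1215 and 776 CPM and at 1338, 1959 and 1319.6 CPM, for a log2 change of 0.69 (standard error 0.17). Both were apart, and the log2 ratio of Septin7 to Septin2 was lower in TE-RMS libraries by 1.10 on average, with an SD over the 3 runs of 0.15. Septin10, from a list of other septins of which 1 of 9 was paired, was 1.71-fold higher.

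Myosin genes were lower apart from Myo3a and the kinase Stk17b. Myl6, the light chain that nonmuscle myosins share, was at 1640.1, 1390.0 and 1229 CPM in planar and 582, 584 and 755 CPM in TE-RMS libraries. Myh10, the heavy chain of nonmuscle myosin IIB, was at 59.6, 33.2 and 46.1 CPM and at 21.1, 17.4 and 22.7 CPM. Both were apart, at 2.22-fold lower each. Cdc42bpb, a kinase that acts on myosin downstream of Cdc42, was at 26.7, 28.9 and 38.8 CPM in planar and 12.5, 3.68 and 8.14 CPM in TE-RMS libraries, the largest fall of the group. Myo9b, a myosin with a GTPase-activating domain, was lower by 4.20-fold, and Myo1c and Myo1d, which tether membrane to actin, by 2.26-fold and 2.48-fold. Myo3a was at 6.59, 15.2 and 3.21 CPM in planar and 23.4, 44.4 and 14.4 CPM in TE-RMS libraries, the largest rise of the group, and overlapped. Stk17b, a relative of death-associated protein kinases, was higher by 2.37-fold and least so in July, with log2 ratios of 0.33, 2.04 and 1.35.

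Genes of GTPase signalling and polarity were all lower and apart. Rnd1, a small GTPase that loosens cell adhesion (chromosome 7, 129821311 to 129828399), had 674, 542 and 377 counts in planar and 46, 3 and 11 counts in TE-RMS libraries, the largest fall of all members with a log2 fold change of -5.17 (standard error 0.75). In the September TE-RMS library Rnd1 was at the floor of 3 counts. The rank holds with all runs in the fit. Without September, the log2 fold changes of Acta1 (-5.71) and Hspb7 (-5.31) were larger falls than that of Rnd1 (-4.34). Stk38l, a kinase of the NDR family, was at 62.3, 66.2 and 58.1 CPM in planar and 30.8, 28.3 and 30.5 CPM in TE-RMS libraries, with little spread within either condition. Taok2, Llgl1 and Dlc1, respectively a kinase, a polarity scaffold and a GTPase-activating protein, were lower by 3.07-fold, 2.66-fold and 2.37-fold. Llgl1 differed least in July, by a log2 ratio of -0.48 against -1.78 and -1.95.

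The remaining 9 members have roles that are mainly outside actin. The small heat shock genes Cryab and Hspb7 were lower. Cryab was at 337, 290.1 and 445 CPM in planar and 102, 129 and 189 CPM in TE-RMS libraries. Hspb7 had 485, 454 and 16 counts and 13, 44 and 0 counts, with the October planar library inside the TE-RMS range. Ntn1 (the guidance cue netrin-1), Sh3gl1 (an endophilin) and Actr1a (the actin-like filament of dynactin) were lower by 4.72-fold, 2.06-fold and 1.71-fold. Slc2a1, the glucose transporter GLUT1, Lancl2 and the nuclear pore gene Ndc1 were higher by 1.80-fold to 2.14-fold. Snap25, a SNARE protein of neuronal synapses, was at 0.0148, 3.92 and 0.0496 CPM in planar and 0.459, 60.8 and 3.50 CPM in TE-RMS libraries. It was the largest rise of all members, with a log2 fold change of 4.61 (standard error 0.45), and nearly all of its counts came from September. The conditions overlapped, since the September planar library was above the July and October TE-RMS libraries, and with 1 and 3 counts the July and October planar libraries were under or at the floor of 3 counts.

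The runs were not used to choose the members and could be tested. By the quasi-likelihood test of edgeR on both run terms at once, with the condition in the model and Benjamini-Hochberg adjustment, 13 of 62 members differed between runs (21.0%), against 3.21% of all tested genes and 11.5% of the other 1441 named genes. The named genes have small p-values in a model that holds the run, so their share is the closer background. The number of members depended on the processing. It was lower with a stricter count filter and higher by the likelihood ratio test of DESeq2, as given below. The share of the other named genes is not given for those settings. Actb, Actg1, Vcl, Lpp, Slc2a1 and Triobp were highest in July in both conditions, with adjusted p-values from 0.00528 for Actg1 to 0.0393 for Vcl. Scin (adjusted p = 0.000284), Snap25 (adjusted p = 4.35e-05) and Myo3a (adjusted p = 0.00903) were highest in September in both conditions. Rflnb (adjusted p = 0.00813) and Dpysl3 (adjusted p = 0.0415) were highest in October, Hspb7 (adjusted p = 0.0438) was lowest in October and Ntn1 (adjusted p = 0.0380) was lowest in September. Date, cell preparation and sequencing cannot be told apart within a run.

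**Figure D4:**
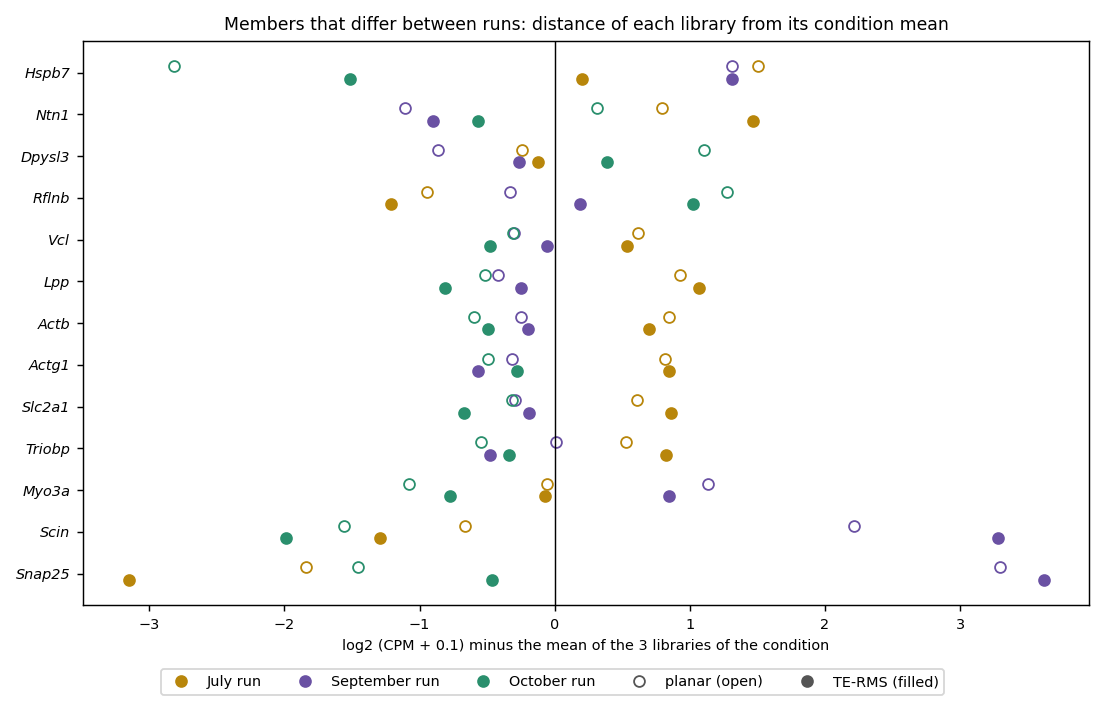
Distance of each library from the mean of its condition, as log2(CPM + 0.1) (x axis), for the 13 members that differed between runs; colors are runs, open points planar and filled points TE-RMS libraries. July points lie farthest right for Actb, Actg1, Vcl, Lpp, Slc2a1 and Triobp, and September points for Scin, Snap25 and Myo3a, in both conditions.

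Markers of other cells, like the astrocyte markers, were named by their small p-values for the contrast between conditions. Markers that did not differ could not appear, so the changes between conditions below are a description and no test of cell composition. Of 12 microglial markers 2 were paired, and one of them, the macrophage gene Cd68, was at 1.30, 15.6 and 0.777 CPM in planar and 8.69, 85.4 and 3.75 CPM in TE-RMS libraries, highest in September as were Scin and Snap25. The other, Tmem119, ran the opposite way at 23.2 CPM or more in planar and 9.14 CPM or less in TE-RMS libraries, and summed over both genes the planar libraries had 25.9, 38.8 and 27.2 CPM and the TE-RMS libraries 14.0, 91.0 and 12.9 CPM. Of 11 neuronal markers 2 were paired, Snap25 itself and Map2, which was at 12.7, 3.70 and 5.89 CPM in planar and 34.5, 30.5 and 14.6 CPM in TE-RMS libraries and was not highest in September. Summed, these 2 genes had 12.7, 7.63 and 5.94 CPM in planar and 34.9, 91.3 and 18.1 CPM in TE-RMS libraries. Of 9 fibroblast and mural markers 3 were paired, all collagens and all lower, and they summed to 646, 395 and 634 CPM in planar and 179.8, 144 and 229 CPM in TE-RMS libraries, with Col1a2 adding the most counts to each sum. Cspg4, a marker of oligodendrocyte precursors, was at 4.02, 4.91 and 5.10 CPM in planar and 0.705, 0.862 and 0.0945 CPM in TE-RMS libraries. No endothelial marker was paired. None of the markers named here was at 0 in a library, and their part in the values of the members was not tested.

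Other genes of the actin pathway were taken from lists written by gene family, of which 24 of 187 genes were paired and all had small p-values by the same choice. Of 11 paired genes of focal adhesions, 10 were lower. Tns1, the tensin gene, was the largest fall at 30.6, 17.2 and 39.5 CPM in planar and 8.99, 1.61 and 2.88 CPM in TE-RMS libraries, Csrp1, a LIM protein gene, was 2.07-fold lower, and Lims1, which encodes the adaptor PINCH, was the 1 higher gene at 2.44-fold. Itga1, Itga5, Itga7 and Itgb5, which are integrin subunits, were lower by 2.37-fold to 6.16-fold. Tln1, the main talin, was at 121, 72.0 and 104 CPM in planar and 46.3, 15.0 and 21.6 CPM in TE-RMS libraries.

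Srf itself was at 18.7, 9.66 and 13.9 CPM in planar and 2.29, 1.25 and 2.46 CPM in TE-RMS libraries, for a log2 change of -2.82 (standard error 0.35), with no overlap. It was the 1 gene paired of 8 in its list. Limk2, a kinase that inactivates cofilins and destrin, was lower by 7.44-fold, and the crosslinker gene Flnc by 13.5-fold. Gmfb, a glia maturation factor that takes apart Arp2/3 branches, was higher, at 185, 123 and 126 CPM in planar and 495, 469 and 425 CPM in TE-RMS libraries. Of 3 paired genes among formins and monomer-binding proteins, Tmsb10 and Fmnl3 were lower and Pfn2 higher. Of 4 paired small GTPases and effectors, Rock2, Rnd2 and Cdc42ep1 were lower by 2.64-fold to 6.71-fold, and Rnd3, a relative of Rnd1, was higher by 1.97-fold. Ank2, the 1 paired gene among membrane skeleton proteins, was higher by 3.21-fold.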

How the data were processed

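From extracted total RNA, 6 libraries were made with an mRNA kit for low amounts of RNA and sequenced. There were 3 from TE-RMSs and 3 from planar cultures, with 1 of each per run. Per the study's methods, fastp trimmed the reads and Salmon assigned them to Ensembl transcripts of the mRatBN7.2 build. The values the authors deposited are gene-level estimated counts, whole numbers without normalization. The non-stranded kit leaves overlapping genes on opposite strands unresolved. Counts of libraries in the same condition differed far beyond sampling noise (chi-square over its degrees of freedom at least 250.3), so none was a repeat deposit. A floor of 3 counts stood for 0.0415 to 0.0529 CPM.

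A gene needed 10 counts over the 6 libraries, which left 16331. TMM normalization and the quasi-likelihood test came from edgeR 4.0.16 (R 4.3.3), run was a blocking term, and p-values were adjusted by Benjamini-Hochberg over every tested gene. The block follows the paired analysis in the study's methods. Deviations from the condition means correlated at 0.18 to 0.27 between libraries of one run and at -0.16 to -0.07 between runs. Within-run log2 ratios used a prior count of 2. A standard error is the size of the log2 fold change over the root of F. The fit was tested on simulated data. Alternatives were DESeq2 1.42.0, other scalings and filters, no block and each run left out.

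Members, functional groups and context lists were chosen with earlier results of these data known. In each group the genes with the largest change in each direction and the most counts, all actin, branching, severing and bundling genes, and members that differed between runs are given by library. A few of these genes are counted with their group but not reported here. The study's table is ordered by p-value and only its first 1517 rows were read, so its p-values decided which genes carry a name, members and other named genes alike. No fold change or p-value given here comes from it.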

Additional observations from a re-analysis of the deposited data

How the results depend on the processing

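No member changed direction under any alternative. Without the run as a block, 1441 genes were called in all against 3044, and 30 members were called lower and 12 higher, against 42 and 20. The 20 members that lost their call were Actb, Actg1, Dlc1, Dstn, Ezr, Flot1, Hspb7, Lpp, Marcks, Myo3a, Ntn1, Pls1, Rflnb, Scin, Septin7, Slc2a1, Snap25, Triobp, Trip6 and Zyx, and the cause was not tested. Without the block, the fold change itself, before the log2, moved by over 1.5 times for Pls1, Scin, Snap25 and Rnd1. Their log2 values went from 4.31 to 3.64, 2.44 to 3.15, 4.61 to 4.01 and -5.17 to -4.54. Of these, Rnd1 kept its call. Upper-quartile scaling moved the median log2 fold change of the members from -1.11 to -1.16. With 1 run left out, 2081 to 3210 genes were called in all, 38 to 41 members lower and 17 to 20 higher, and the median lay between -1.08 and -0.99. Without July, Acta1 lost its call (log2 fold change -2.71). Without September, Actb, Actg1, Scin, Septin7 and Snap25 did, with adjusted p-values from edgeR of 0.0605 to 0.638. Without October, Acta1, Flot1, Llgl1, Marcks and Septin7 did. Some members kept their call with a run left out while their fold change, before the log2, moved by over 1.5 times. Their log2 values were -6.16 for Rnd1 without July, and 3.39 for Pls1 and -1.17 for Tln2 without October. Without September they were -5.71 for Acta1, -5.31 for Hspb7, 5.24 for Pls1 and -4.34 for Rnd1. The log2 value of Snap25 without September was 5.52. With at least 10 counts in at least 3 libraries, Acta1 lost its call (adjusted p = 0.0542) and 8 members differed between runs, against 13, while the share of all tested genes that did was 1.63%, against 3.21%. The likelihood ratio test of DESeq2 on the run terms called 19 members and 7.62% of all tested genes.

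DESeq2 with the run as a block called 3963 genes and all members but Actb (adjusted p = 0.174). DESeq2 had taken Actb's own dispersion of 0.211 as an outlier. With no filter beyond 1 count, an alternative added after the data were seen, it used 0.0185. This value lies below both Actb's own dispersion in that fit, 0.211, and the trend over genes of similar level, 0.0225. The adjusted p of 3.49e-08 from DESeq2 in that fit rests on this low value and is not taken to restore the call. The log2 fold change was -0.97 in both fits.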

Other observations

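All 8 members on chromosome 10 were lower in TE-RMS astrocytes (Actg1, Llgl1, Myh10, Myo1c, Myo1d, Ntn1, Ppp1r9b and Rflnb), and all 4 on chromosome 12 (Actb, Arpc1b, Arpc3 and Trip6). The other named genes on these chromosomes were lower in 71.0% and 92.3% of cases, against 12.7% on chromosome X, where Pls3 is the 1 member and was higher. Among members, Dbn1 and Pdlim7, both lower, were the nearest neighbors, with 10847 bases between them on chromosome 17 of mRatBN7.2.

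The promoter windows of lower members had a median G and C content of 67.2% (32 genes) and those of higher members 64.0% (15 genes). The same medians were 65.0% for 564 lower and 60.3% for 576 higher genes among the other named genes, and 52.3% over all symbols with a window. The part of base composition in the fold changes was not tested.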
